A study of Rattus norvegicus with 2 samples.

Results

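The acyl-CoA synthetases and acyl-CoA thioesterases examined here were 8 rat genes, the long-chain acyl-CoA synthetase genes Acsl1, Acsl3, Acsl4 and Acsl5 and the thioesterase genes Acot1, Acot2, Acot8 and Acot12. They were taken by name, as every probe set whose single gene symbol in the platform annotation was one of these 8. That gave 9 probe sets, 2 for Acsl1 and 1 for each of the other 7 genes, out of 10411 genes with a single symbol on the array. Liver RNA had been hybridised to 2 arrays, 1 from a high-fat diet and 1 from a low-fat diet, both based on the purified rodent diet AIN93G. SD rats were described as 4 weeks old with 9 weeks of feeding. The sources used here do not state the sex, the feeding state, the fat content of either diet, or how many rats each RNA came from. Since each diet had a single array, no difference below has a p-value or an error between animals, and each describes these 2 arrays only.

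A fatty acid has to be joined to coenzyme A before a liver cell can oxidise it, elongate it or build it into triglyceride and phospholipid. The long-chain acyl-CoA synthetases catalyse that activation at the cost of ATP, and their isoforms sit on different membranes, so that the isoform present bears on which pathway receives the acyl-CoA. The acyl-CoA thioesterases run the opposite reaction and release free fatty acid and coenzyme A in the cytosol, mitochondria or peroxisomes. Several genes of both families are known targets in liver of the fatty acid sensor Ppara, which binds direct repeats of the hexamer AGGTCA.

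All 8 genes had a promoter window in the RefSeq table of build GRCr8, 300 bases reaching from 250 before to 50 after 1 annotated start per gene. The arrays carry no coordinates, so these windows describe the genes and not the probes. The windows of 4 measured members are shown. These are the member with the highest ratio (Acsl4), the 2 with the lowest (Acsl5 and Acot12), and Acot8. The Acot8 window holds 1 AGGTCA within a direct repeat that lacks its first base. The 4 windows lie at chrX:110803212-110803511 (minus strand), chr1:264294601-264294900 (plus strand), chr3:173962139-173962438 (minus strand) and chr2:24721709-24722008 (plus strand). They are written from 5′ to 3′ with AGGTCA on either strand, or the shortened repeat GGTCANAGGTCA, in capitals.
Acsl4: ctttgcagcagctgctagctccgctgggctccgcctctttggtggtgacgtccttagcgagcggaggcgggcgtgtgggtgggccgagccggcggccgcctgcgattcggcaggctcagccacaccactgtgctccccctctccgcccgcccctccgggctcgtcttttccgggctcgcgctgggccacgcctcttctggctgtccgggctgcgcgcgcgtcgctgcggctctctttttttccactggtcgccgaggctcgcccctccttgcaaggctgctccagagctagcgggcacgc
Acsl5: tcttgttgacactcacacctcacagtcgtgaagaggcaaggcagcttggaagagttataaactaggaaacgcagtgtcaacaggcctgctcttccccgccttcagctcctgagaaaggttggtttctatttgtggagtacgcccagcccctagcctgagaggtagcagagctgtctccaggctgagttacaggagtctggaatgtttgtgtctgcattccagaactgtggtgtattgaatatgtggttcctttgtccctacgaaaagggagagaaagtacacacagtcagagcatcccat
Acot8: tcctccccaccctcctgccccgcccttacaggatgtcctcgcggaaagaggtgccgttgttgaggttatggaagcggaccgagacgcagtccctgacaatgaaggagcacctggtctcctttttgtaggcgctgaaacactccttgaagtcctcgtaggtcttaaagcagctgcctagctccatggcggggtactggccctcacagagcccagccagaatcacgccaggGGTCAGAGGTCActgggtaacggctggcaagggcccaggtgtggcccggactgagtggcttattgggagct
Acot12: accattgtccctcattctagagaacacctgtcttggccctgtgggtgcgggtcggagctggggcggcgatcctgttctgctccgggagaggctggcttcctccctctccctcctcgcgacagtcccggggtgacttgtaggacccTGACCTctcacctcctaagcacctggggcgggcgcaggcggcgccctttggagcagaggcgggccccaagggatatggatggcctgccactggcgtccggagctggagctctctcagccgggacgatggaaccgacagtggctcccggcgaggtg

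The hexamer AGGTCA was present on either strand in 2 of the 8 windows, those of Acot8 and Acot12, and in 16.2% of 33469 rat promoter windows of the same length. The full direct repeat with 1 base between the hexamers, AGGTCANAGGTCA, was in none of the 8 and in 0.0538% of all windows. Without its first base, GGTCANAGGTCA, it was in the Acot8 window and in 0.102% of all windows. This shorter form was chosen with the Acot8 sequence in view and overlaps the hexamer found there. In Acot8 this shorter form began 21 bases before the start. In Acot12 the hexamer began 105 bases before the start, on the minus strand as TGACCT. The E-box CACGTG was in none of the 8 windows and in 6.42% of all. The windows of Acsl3 and Acsl4 were rich in G and C, at 72.7% and 70.7%, against a median of 51.7% over all windows, while those of Acsl5 and Acsl1 had 49.7% and 40.7%. For Acsl1 the annotated start used lies 21718 bases inside the gene's RefSeq span, so other starts of that gene are not covered. The starts used for Acot2, Acot12 and Acsl4 lie 1414, 311 and 155 bases from the outermost start of their gene. Of these outermost starts, only that of Acsl4 falls within its window. These matches describe letters in 1 window per gene and nothing about binding in these livers.

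No measured gene of the set differed 2-fold between the diets. Of the 8 genes, 5 were measured, meaning that their log2 signal, averaged over the arrays, was at least the average of the log2 floors. The floor was each array's median signal, 14 on the high-fat and 15.7 on the low-fat array. The other 3, Acsl3, Acot1 and Acot2, were below the floor on both arrays. Ratios are log2 of high-fat over low-fat signal, centred on the median of all measured probe sets, which was -0.12 before centring. At 2-fold or more, 0 of the 5 were higher, where 0.848% of 6012 measured genes were, and 0 were lower, where 0.865% were. After centring 4 of the 5 had a ratio below 0, against 50% of measured genes, and the sign of 1 of those 4, Acsl1, changed with the processing. The deposited signals themselves were lower on the high-fat array for the same 4 genes, against 66.6% of measured genes. The 5 ratios lay between -0.37 and 0.23, with a median of -0.15, against -0.00019 over all measured genes.

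**Figure D1:**
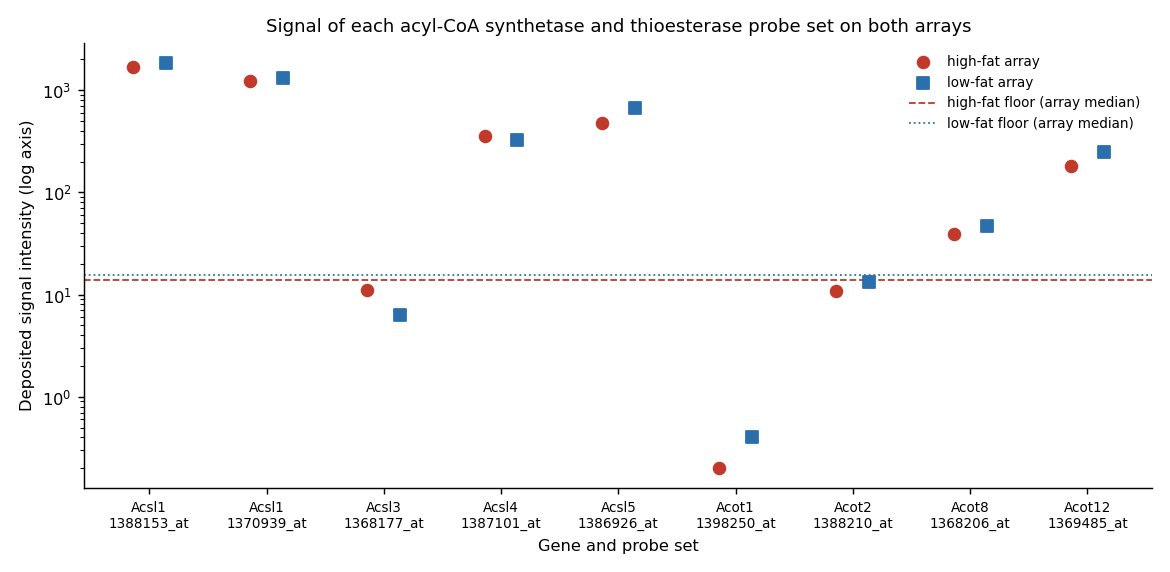
Deposited signal intensity (log axis) of each of the 9 probe sets on the high-fat array (red circles) and the low-fat array (blue squares), with each array's median as a dashed or dotted floor. Acsl1, Acsl4, Acsl5, Acot8 and Acot12 lie above both floors and Acsl3, Acot1 and Acot2 below both. Heights are not comparable between probe sets, whose probes differ in sequence.

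Acsl1 encodes the main long-chain synthetase of liver and is known from rodents to feed both oxidation and triglyceride synthesis. Its probe set 1388153_at had a signal of 1700.7 on the high-fat array and 1850.1 on the low-fat array, and 1370939_at had 1242.3 on the high-fat array and 1330.0 on the low-fat array. Both were therefore slightly lower on the high-fat array as deposited, by about as much as the array as a whole. Centred, the ratios were -0.0048 and 0.018, a difference of 0.023 between the probe sets. Both probe sets were annotated to the same target sequence, so they are not independent views of the gene. Among the tenth of measured probe sets with the highest signal, to which both belong, the robust SD of the ratio was 0.17.

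Acsl5, a synthetase of mitochondrial and endoplasmic reticulum membranes that is known to be induced by insulin in liver, had the lowest ratio of the measured synthetase members. Its signal was 482.1 on the high-fat array and 669.3 on the low-fat array. The centred ratio was -0.36, or 1.28-fold lower on the high-fat array. Its distance from the median of probe sets of like signal was -2.38 robust SDs, and it lay just inside the range of -0.37 to 0.55 that held the central 95% of them. Of all measured genes, 13.3% had a ratio as low or lower. The value is from 1 probe set and 1 array per diet, and no spread between rats can be set beside it.

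Acsl4 prefers arachidonate and related polyunsaturated fatty acids and is known for its part in eicosanoid metabolism and in membrane lipids open to peroxidation. It was the measured member with the highest ratio, with a signal of 354.9 on the high-fat array and 327.6 on the low-fat array. The centred ratio was 0.23, or 1.17-fold higher on the high-fat array, and probe sets of like signal had a robust SD of 0.23 around a median of 0.0039. Of measured genes, 20.3% had a ratio as high or higher. Acsl4 is also expressed in cells other than hepatocytes. Of 9 listed markers of macrophages and Kupffer cells, 7 were measured. Their summed deposited signals, not centred, were 1179.8 on the high-fat array and 1377.2 on the low-fat array. After centring, 3 of these markers were higher and 4 lower, with a median ratio of -0.05, and none had a signal of 0. Their part in the Acsl4 ratio was not tested.

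The ratios of Acsl4 and Acsl5 differed by 0.59, and this difference within the same arrays does not depend on where the ratios are centred. The robust SDs of probe sets of like signal, combined for both genes as the root of their summed squares, came to 0.28. Acsl1 lay between them. Its ratio minus that of Acsl5 was 0.35, and its ratio minus that of Acsl4 was -0.24. The order among the 3 measured synthetases was thus Acsl4, Acsl1, Acsl5 on these arrays. Only the gaps from Acsl5 exceeded the combined spread, which was 0.24 for Acsl1 and Acsl5 and again 0.28 for Acsl4 and Acsl1. That spread is an SD and not a 95% range, and unrelated probe sets often differ by more. Acsl4 and Acsl5 were also picked as the highest and lowest of the 3, so the gaps do not establish a separation. Acsl3, a synthetase of the endoplasmic reticulum and lipid droplets, had a signal of 11.1 on the high-fat array and 6.3 on the low-fat array. Both values were below the floors, so no fold is given.

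**Figure D2:**
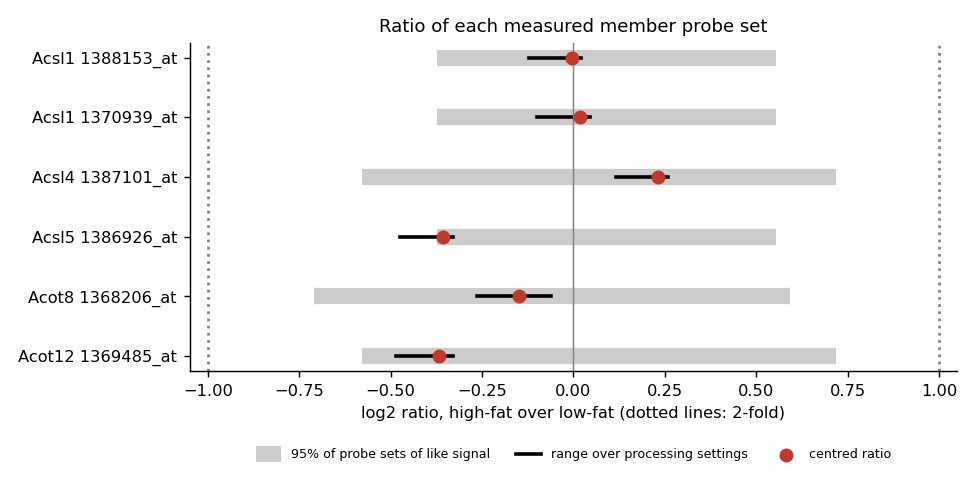
Centred log2 ratio, high-fat over low-fat, of the 6 measured probe sets (red points), the range of that ratio over the processing settings tried (black lines) and the range that held 95% of measured probe sets of like signal (grey bars). All 6 points lie inside their grey bar, and that of Acsl5, at -0.36, is nearest its edge.

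Among the thioesterases, Acot12, a cytosolic enzyme of liver that splits acetyl-CoA, had the lower ratio of the 2 measured members. Its signal was 179.5 on the high-fat array and 251.1 on the low-fat array, a centred ratio of -0.37, or 1.29-fold lower on the high-fat array. Its distance from the median of probe sets of like signal was -1.63 robust SDs, and their central 95% ran from -0.58 to 0.72. The ratio of Acot12 minus that of Acsl5 was -0.011, and Acsl5 was the lower of both after quantile normalization, loess or a pseudocount. Acot8, a peroxisomal thioesterase with broad chain-length range, had a signal of 39.3 on the high-fat array and 47.2 on the low-fat array. Its ratio was -0.15, where probe sets of like signal had a robust SD of 0.31. The ratio of Acot12 minus that of Acot8 was -0.22, within their combined spread of 0.39.

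Acot1 and Acot2 encode a cytosolic and a mitochondrial thioesterase of very similar sequence, known in rodents as genes induced by peroxisome proliferators. In the RefSeq gene order of GRCr8 they are adjacent on chromosome 6, and Acot4, Acot3 and Acot5 follow after the gene Rpl23al8. The probe set of Acot1 had a signal of 0.2 on the high-fat array and 0.4 on the low-fat array, and that of Acot2 had 10.8 on the high-fat array and 13.4 on the low-fat array. Neither reached the floor on either array, and no fold is given for them. A further probe set, 1388211_s_at, was annotated to both genes and so lay outside the rule. It had a signal of 15.7 on the high-fat array and 16.5 on the low-fat array, just above both floors, where the robust SD of the ratio was 0.49. Whether that signal came from Acot1, Acot2 or both cannot be told apart. The deposited table has no detection calls, so a low signal shows only that these probes did not rise above the array's median.

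**Figure D3:**
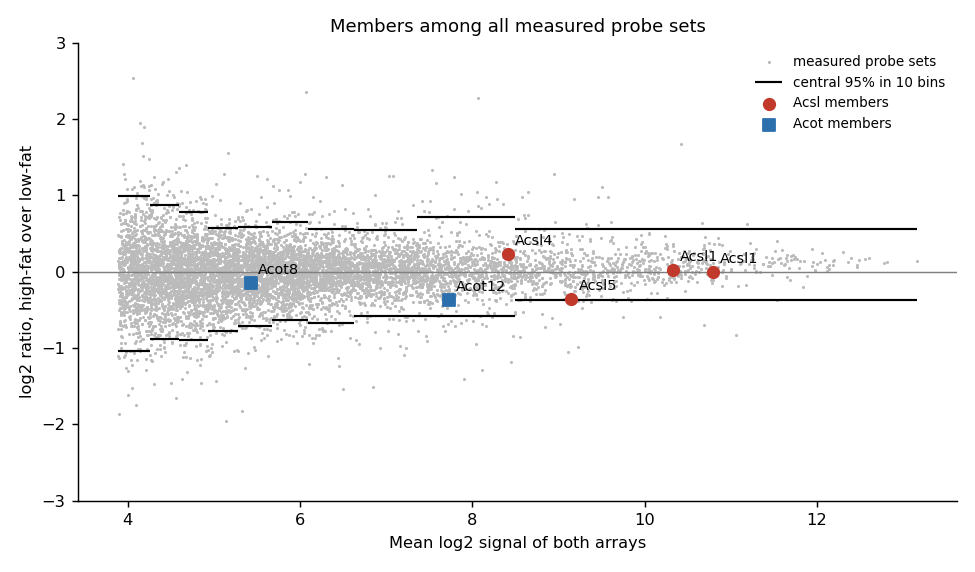
Centred log2 ratio, high-fat over low-fat, against the mean log2 signal of both arrays for 7864 measured probe sets (grey), with the synthetase members as red circles and the thioesterase members as blue squares. Black steps bound the central 95% of probe sets in each of 10 bins of equal size, and every measured member lies between them.

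The other genes of the same enzyme families showed no common direction. Of 21 listed other synthetases, 15 were on the array and 9 were measured, with 6 ratios above and 3 below 0, none past 2-fold, and a median of 0.13. Without centring 5 were above and 4 below 0, where 66.6% of measured genes were below, and the median was 0.016. With no floor 7 were above and 8 below with a median of -0.16. Slc27a5, the bile acid and very-long-chain synthetase of liver, had the highest ratio at 0.39, with 1104.3 on the high-fat array and 913.8 on the low-fat array. Slc27a2, the other very-long-chain synthetase abundant in liver, was at 0.15. The lowest were Acsm3, a medium-chain synthetase with a high-fat signal near the floor, at -0.71, Acss2, the cytosolic acetyl-CoA synthetase, at -0.39, and the fatty acid transport protein gene Slc27a4 at -0.37.

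Of 14 listed other thioesterases, 8 were on the array and 5 were measured, with 3 ratios above and 2 below 0 and a median of 0.06. Without centring the median was -0.06, with 2 above and 3 below 0, where 66.6% of measured genes were below. Acot4, a gene of the same cluster as Acot1 and Acot2 whose mouse enzyme is peroxisomal, had the lowest ratio among the measured genes of these lists. Its signal was 43.4 on the high-fat array and 84.0 on the low-fat array, a ratio of -0.84, or 1.79-fold lower on the high-fat array. Acot7, the cytosolic long-chain thioesterase, was at -0.29, and its second probe set was below the floors at 1.0 on the high-fat array and 4.8 on the low-fat array. Hibch, which splits the CoA ester of a valine breakdown product, was at 0.37. Baat, which conjugates bile acids to amino acids and also has thioesterase activity, was at 0.27.

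Genes that supply, carry or degrade coenzyme A and its esters had more ratios below 0 than above. Of 19 listed, 16 were on the array and 13 were measured, of which 10 had a ratio below 0, against 50% of measured genes, and 3 above, none past 2-fold, with a median of -0.20. With no floor 10 of 16 were below 0. On the deposited signals, without centring, 13 of 13 were lower on the high-fat array, where 66.6% of measured genes were. Slc25a42, the mitochondrial carrier of coenzyme A, was lowest at -0.72, with 49.7 on the high-fat array and 88.8 on the low-fat array. Acbd6, an acyl-CoA binding protein gene, was at -0.47. Pank3, a pantothenate kinase that starts coenzyme A synthesis, was at -0.35, and Ppcs, which acts next in that pathway, at -0.31. Dbi, the main cytosolic acyl-CoA binding protein, had 1239.1 on the high-fat array and 1606.1 on the low-fat array, a ratio of -0.26.

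Enzymes that take up long-chain acyl-CoA were split. Of 18 listed, 14 were on the array and 10 were measured, 5 above and 5 below 0, with a median of 0.04 (-0.08 on uncentred ratios). The peroxisomal oxidases Acox3 and Acox2 were at 0.62 and 0.49, and the desaturase gene Scd and the triglyceride-forming Dgat1 at -0.70 and -0.47.

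**Figure D4:**
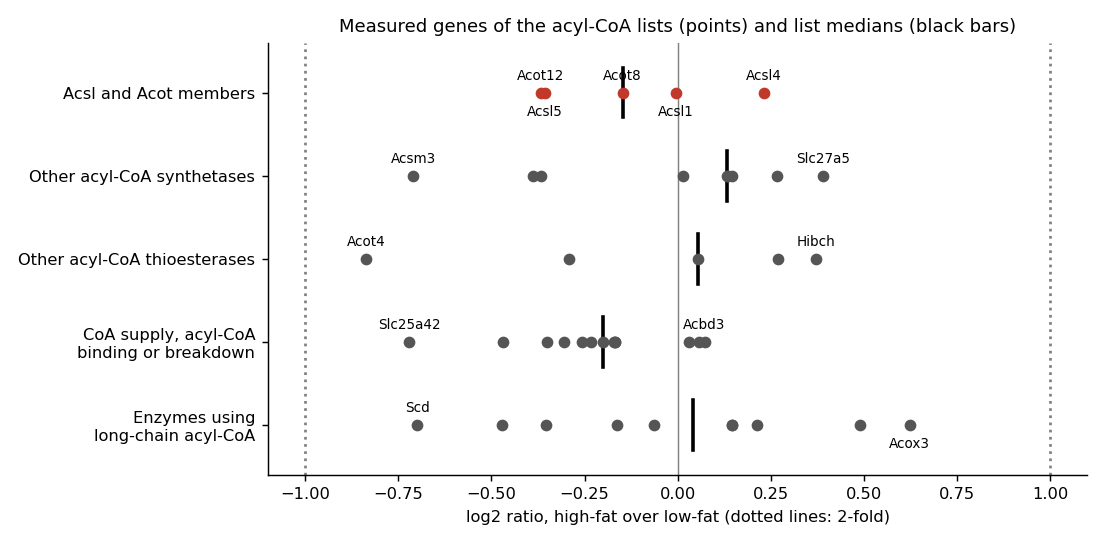
Centred log2 ratio, high-fat over low-fat, of each measured gene of the set and of 4 other acyl-CoA lists (points) with the list medians (black bars). No gene reaches the dotted lines at 2-fold, and 10 of 13 genes of coenzyme A supply, binding or breakdown lie below 0 (13 of 13 without centring).

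Hepatocyte markers were strongly detected, as the tissue label implies. Their 7 measured genes had a summed deposited signal of 25488.8 on the high-fat array and 25472.7 on the low-fat array. The median centred ratio was 0.14. Sums here are not centred and are weighted to the brightest probe sets, so they need not move with the median ratio. Stellate cell and fibroblast markers had 4 of 7 measured, all with centred ratios below 0 on the brightest probe set and a median of -0.43. Their summed deposited signals were 267.8 on the high-fat array and 376.1 on the low-fat array. Col1a2 alone among them was past 2-fold, with 13.2 on the high-fat array, under the floor, and 29.9 on the low-fat array, and its second probe set was at 0.07. Of the 3 stellate markers not measured, Col1a1 was higher on the high-fat array on both probe sets. These had 10.4 against 5.2 and 3.0 against 1.2 on the low-fat array. Des and Acta2 were lower, and all these signals were under the floors. The 2 measured endothelial markers also had ratios below 0, with a median of -0.21. The 2 measured adipocyte markers were at 0.017 (Cfd) and 0.26 (Cidea, near the floor), with a median of 0.14. Their summed deposited signals were 72.8 on the high-fat array and 75 on the low-fat array. Of the endothelial and adipocyte markers not measured, Vwf and Fabp4 were higher on the high-fat array, and Pecam1, Plin1 and Lep lower. The signals of these unmeasured markers were all under the floors. Of 5 lymphocyte markers on the array none was measured. As a sign of RNA integrity, control probe sets at the 3′ end of beta-actin were 2.85 times as bright as those at the 5′ end on the high-fat array, against 2.69 times on the low-fat array. No marker of these lists was at 0 on either array. The part of these markers, and of RNA integrity, in the ratios above was not tested. In such tissue RNA, fewer cells of a type and less RNA per cell cannot be told apart.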

How the data were processed

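The deposited values were signal intensities on a linear scale, 1 for each probe set on each array, from 0 to 9255.6 on the high-fat and 9119.2 on the low-fat array. How the authors corrected background, summarised probes and scaled the arrays is not given in the sources used here, and any scaling to a target would alter the overall shift between arrays. Diets were taken from the sample titles. Of 15923 probe sets, 57 controls were left out and 4 with a signal of 0 on an array were removed. Of the 15866 that were no controls, 12783 had 1 gene symbol in the platform annotation, 312 several and 2771 none. Symbols were checked by Entrez identifier against the RefSeq gene table of GRCr8 and none changed.

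Ratios were taken on log2 signals without a pseudocount. The floor was each array's median, and 7864 probe sets were measured. A gene with several measured probe sets was represented by its brightest on average. Probe sets of like signal are 10 bins of measured probe sets of equal size, and the robust SD is the scaled median absolute deviation. It describes spread among probe sets, not between animals. There was no test, since each diet had 1 array, and their number limits the precision.

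The text names every member, and of each other list the 4 measured genes with the largest ratio in either direction and the one with the highest signal. The members and lists were chosen with earlier results of these data known. Alternatives were no centring, centring on hybridization controls, quantile normalization, loess, floors at the 25th and 75th percentiles, no floor, adding 50 to each signal, taking the median of a gene's measured probe sets, and removal of probe sets named as open to cross-hybridisation. The steps were tested on simulated data. Python 3.11.15, numpy 2.4.6, pandas 2.3.3 and statsmodels 0.14.6 were used.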

Additional observations from a re-analysis of the deposited data

How the results depend on the processing

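The counts of members at least 2-fold higher and lower were 0 under the main setting and all 10 alternatives. Not every alternative could alter these counts. Removal of probe sets open to cross-hybridisation took out no member probe set, and the median over probe sets could alter only Acsl1. Over all measured genes the same counts ran from 4 and 4 of 6012 with a pseudocount of 50 to 836 and 996 of 10411 with no floor. With 4 to 8 members measured, counts of 0 do not set the members apart from all genes. The median over measured members ran from -0.26 without centring to -0.06 with a pseudocount of 50. With the floor at the 75th percentile Acot8 was no longer measured. Acsl5, Acot12 and Acot8 stayed below 0 and Acsl4 above 0 wherever they were measured, with ranges of -0.47 to -0.33, -0.48 to -0.33, -0.26 to -0.06 and 0.12 to 0.26. The Acsl1 probe set 1388153_at was below 0 under every scaling, down to -0.12 without centring, and above 0 only with the floor at the 25th percentile (0.0097) or none (0.022). The other, 1370939_at, changed sign with the scaling, from -0.098 to 0.045 over all settings. Without a floor, the ratio of Acsl3 was 0.96, that of Acot1 -0.86 and that of Acot2 -0.17, from signals too low to order. They are not read as folds. The medians of the other lists also moved with the floor, and without one the median of the other synthetases was -0.16 over 15 genes. Of the coenzyme A supply list, 5 of 15 were above 0 with the floor at the 25th percentile and 6 of 16 without one. Without a floor 5 of 8 other thioesterases and 9 of 14 enzymes that take up long-chain acyl-CoA were below 0. The share of all genes below 0 at other floors is not given, so list counts at those floors, here or above, stand without that comparison. No paired analysis was possible because each diet had 1 array. For the same reason no replicate could be left out. Low signal limits what can be said of 3 of the 8 genes, which were not measured.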
